A study of Mus musculus with 3 samples.

Results

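The Eya (eyes absent) coactivators and their sine oculis homeobox partners described here are 7 genes, Eya1, Eya2, Eya3, Eya4, Six2, Six4 and Six5, of 18193 genes named on the array. Their members are the 18 probe sets whose only gene symbol in the platform annotation is one of these names. The genes were selected on their differences between the E16, E18 and P3 arrays, Eya1 being among the genes that differed most between the embryonic stages, so their own values are a description and carry no test. RNA came from dental papillae of ICR mice at embryonic day 16 (E16), embryonic day 18 (E18) and postnatal day 3 (P3). The papilla is the mesenchymal core of the tooth germ, which gives rise to odontoblasts and the dental pulp. Papillae were separated with enzymes from mandibular first molars, more than 20 of them went into each RNA sample, and the labels give no genotype or treatment. Each stage has 1 array, so no error between animals, no standard error and no p-value can be given, and each fold below compares 1 pooled sample with another.

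Eya proteins are transcriptional coactivators that carry a phosphatase domain and do not bind DNA by themselves. They are brought to DNA by homeodomain factors of the sine oculis family, to which Six2, Six4 and Six5 belong, and the same complexes can repress target genes when Dach or Groucho (Tle) corepressors take the place of Eya. With Pax and Dach genes they form a network known from the eye, ear, kidney, muscle and pharyngeal arches, and in progenitor cells of these organs it is known for holding cells in a proliferating, undifferentiated state.

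The deposited values are ratios of each probe set to its own middle value, so signals were recovered from their step pattern. A recovered signal can be too low by a whole-number factor. The deposited ratio between stages does not depend on that factor. Which probe sets reach the signal floor given below, the bounds set by that floor and the choice of brightest probe set do depend on it. Signals of different probe sets are not comparable as amounts of RNA. Signals below a floor of 82.0, the median over all probe sets and arrays, were set to it before differences were taken, and a difference with 1 array at the floor is a bound. Of the 18 member probe sets, 9 reached the floor on at least 1 array, and these covered 6 of the 7 genes. Fewer cells of a type and less RNA per cell cannot be told apart in such pooled tissue. The arrays differed in their control probe sets, and not all controls set the same array apart. Hybridisation controls read a median 2.17 times as high on the E18 array as on the E16 array, and 1.04 times at P3. Actin's 3' over 5' ratio, which reports on RNA quality, was 3.87 times as high at E18 as at E16 and 2.46 times at P3. That of Gapdh was 1.42 times as high at E18 but 0.355 times at P3, so by Gapdh the P3 array was the one that stood apart. Their part in the results was not tested. The pooled SD between measured probe sets of one gene was 0.61 (log2) at E18 against E16, 0.54 at P3 against E18 and 0.61 at P3 against E16, which is the only measure of error here and leaves out errors that a whole array shares.

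From E16 to E18, Eya1 and Six2 were lower by 2-fold or more and no member was 2-fold higher, out of 6 members measured. Among all 12029 genes measured in that comparison, 8.13% were at least 2-fold lower and 8.09% higher. From E18 to P3, Six4 was the only member at least 2-fold lower of 5 measured, and none was higher, where 11.8% of all genes were lower and 4.08% higher. That Six4 value was under 2-fold with median scaling (1.91-fold), with a floor of 164 (1.76-fold) and with the median over probe sets (1.87-fold), while Six5 passed 2-fold upward with quantile normalization (2.10-fold) and median scaling (2.11-fold). Over the whole interval, Eya1, Six2 and Six4 were lower at P3 by 2-fold or more and Six5 was higher, of 6 measured. The share of all genes was 15.6% lower and 6.58% higher. The median log2 difference of the measured members was -0.36 at E18 against E16, -0.20 at P3 against E18 and -0.85 at P3 against E16, beside -0.04, -0.15 and -0.17 for all genes. These comparisons share arrays, so their counts are not independent, and since these values chose the members nothing further is read from the counts.

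Eya1, the coactivator mutated in branchio-oto-renal syndrome, differed most. Its probe set 1457424_at had a recovered signal of 816 at E16, 101 at E18 and 81.6 at P3. The E16 pool was high, and the E18 and P3 pools were both low and close to the floor. Eya1 was 8.08-fold lower at E18 than at E16. At P3 it was at least 9.95-fold lower than at E16, a log2 difference of -3.31, where the deposited ratio without the floor gives -3.32. The step from E18 to P3 was small by comparison, a decrease of at least 1.23-fold. In rank, Eya1 was number 6 from the lowest among 12029 genes at E18 against E16 and number 10 among 12189 at P3 against E16.

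The other Eya1 probe sets never reached the floor. The probe set 1421727_at had signals of 52.2 at E16, 9.83 at E18 and 40.1 at P3, and 1443117_at had 53.4, 18.3 and 30.3. Both were highest at E16, as was the brightest probe set, but both were lowest at E18, whereas the brightest was lowest at P3. Values under the floor have no firm order, so the size of the Eya1 decrease rests on 1 probe set.

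**Figure D1:**
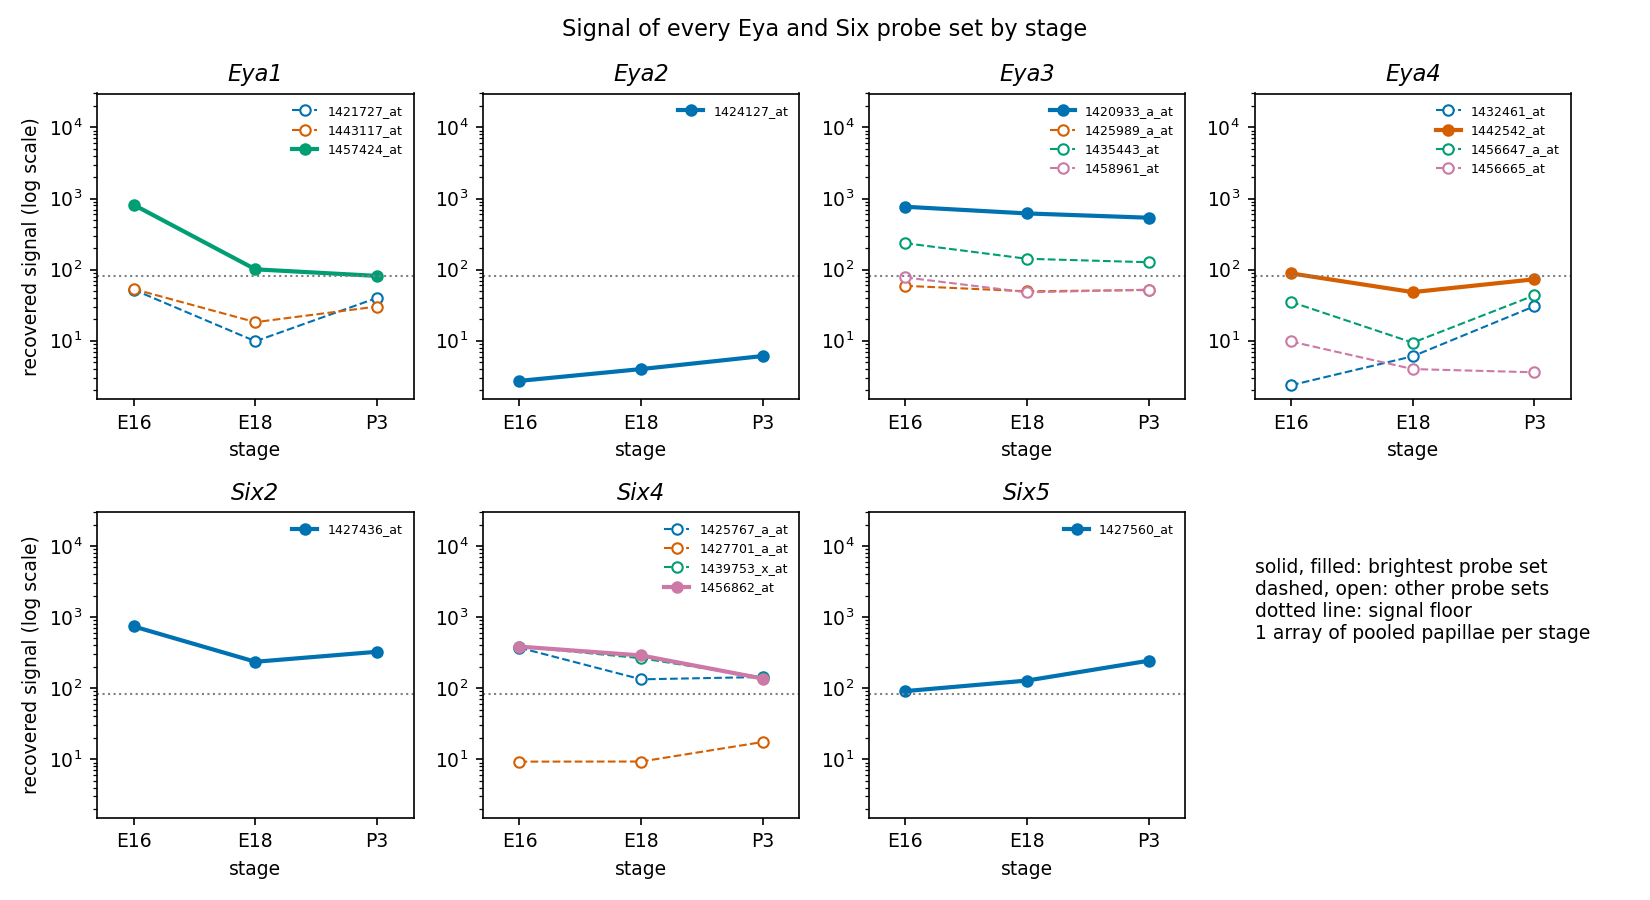
Recovered signal (log scale) of all 18 probe sets of the 7 genes over the 3 stages, each stage being 1 array of pooled papillae. Filled points and solid lines mark the brightest probe set of each gene, open points and dashed lines the others, and the dotted line the floor of 82.0. Eya1 drops from 816 to 101 between E16 and E18, Six5 alone of the measured genes is highest at P3, and Eya2 lies far under the floor.

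Eya3, a widely expressed member, was present at all stages with small differences. Its brightest probe set, 1420933_a_at, had signals of 766 at E16, 617 at E18 and 537 at P3. A second measured probe set, 1435443_at, had 235, 142 and 127. Both were highest at E16 and lowest at P3, but at P3 they were only 1.43-fold and 1.85-fold lower than at E16, under the 2-fold threshold. The step from E18 to P3 (1.15-fold and 1.12-fold lower) turned to a log2 difference of 0.10 for the brightest probe set after quantile normalization. The remaining Eya3 probe sets, 1425989_a_at (59.2, 49.6 and 51.7) and 1458961_at (77.7, 48.0 and 52.3), stayed below the floor and were also highest at E16.

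Eya4, known for its roles in the inner ear and heart, lay at the edge of detection. The probe set 1442542_at had 88.6 at E16, 48.3 at E18 and 73.2 at P3, so only the E16 value was above the floor. This gives a decrease of at least 1.08-fold at both later stages, a bound that leaves the size unknown. The other probe sets stayed below the floor and disagreed in order. The probe set 1432461_at read 2.37, 6.05 and 30.6, lowest at E16, while 1456665_at read 9.76, 4.0 and 3.60, highest there. The signals of 1456647_a_at were 35.2, 9.40 and 43.5.

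Eya2, which acts in muscle and cranial placodes, had 1 probe set, with signals of 2.73 at E16, 4.0 at E18 and 6.10 at P3. All were far below the floor, so no difference is given for it.

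Six2, a homeodomain factor that holds kidney progenitors undifferentiated and is also a gene of facial mesenchyme, was measured on all arrays. Its only probe set, 1427436_at, had 738 at E16, 235 at E18 and 325 at P3. The E16 pool was high, and the later pools lay close together. Six2 was 3.14-fold lower at E18 than at E16, a log2 difference of -1.65. From there to P3 it was 1.38-fold higher. At P3 it was 2.27-fold lower than at E16. That last value fell below the threshold with other scalings, to 1.84-fold after quantile normalization and 1.94-fold after median scaling.

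Six4, a factor that works beside its relatives in muscle and cranial sensory development, had 3 probe sets above the floor on all arrays. The brightest, 1456862_at, had 384 at E16, 288 at E18 and 136 at P3. The probe set 1439753_x_at, which the annotation ties to the same sequence record and so is no separate measure, had 385, 263 and 141. The third, 1425767_a_at, had 370, 133 and 144. All gave a like difference over the whole interval, 2.82-fold, 2.73-fold and 2.58-fold lower at P3 than at E16.

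The Six4 probe sets differed on when the decrease came. By 1456862_at, Six4 was 1.33-fold lower at E18 than on the E16 array, and from there to P3 a further 2.12-fold lower, with 1.46-fold and 1.87-fold for 1439753_x_at. By 1425767_a_at it was 2.78-fold lower at E18 and then 1.08-fold higher at P3. These probe sets thus give the same end point with a late decrease in one case and an early one in the other. The last probe set, 1427701_a_at, read 9.26, 9.29 and 17.5, far below the floor.

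Six5, the homeobox gene next to the myotonic dystrophy kinase gene Dmpk, went the other way. Its only probe set, 1427560_at, had signals of 90.9 at E16, 128 at E18 and 243 at P3, so the E16 value was just above the floor and the P3 value well above it. Six5 was 1.41-fold higher at E18 than at E16 and 1.90-fold higher again at P3. Over the whole interval it was 2.67-fold higher. With a floor of 164 this became a bound of at least 1.48-fold, under the threshold, since the E16 and E18 values then lie below the floor. It was the only measured member with its highest signal at P3.

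**Figure D2:**
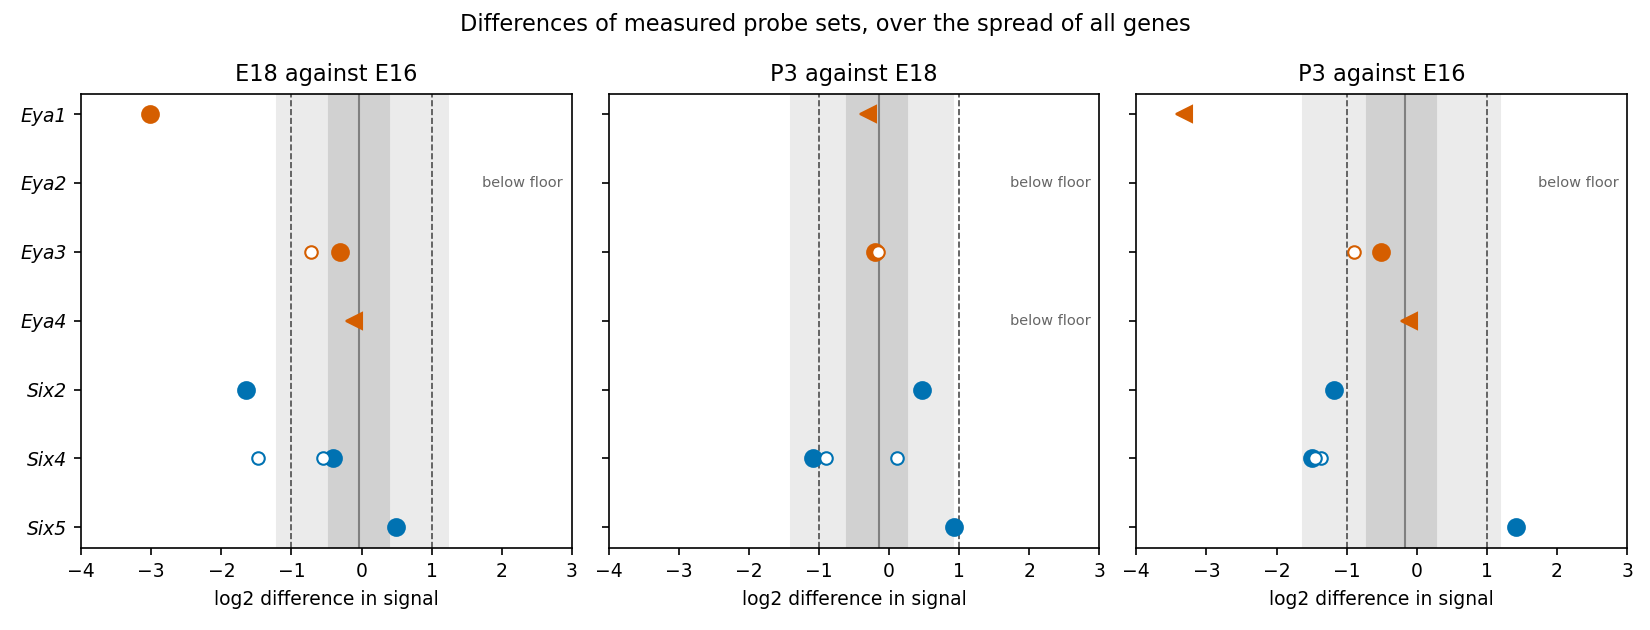
Log2 difference in signal of each measured probe set of the 7 genes in the 3 comparisons, with Eya1 to Eya4 in orange and Six2, Six4 and Six5 in blue. Large filled symbols are the brightest probe sets, small open circles the others, and left-pointing triangles bounds with 1 array at the floor. The light and dark bands span the central 90% and 50% of all genes, the grey line their median and the dashed lines 2-fold. Eya1 lies at -3.01 at E18 against E16, and Six5 at 1.42 at P3 against E16.

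Counted by probe set, 8 of the 9 measured ones were highest at E16, none at E18 and 1 at P3. Among all 26132 probe sets above the floor on at least 1 array, 40.6% were highest at E16, 33.7% at E18 and 25.8% at P3. Probe sets of one gene share a transcript and are not independent.

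Promoter sequence is shown for Six2 and Six5, which had opposite courses, and for Six4, where a match to a motif of this family was found. Promoter windows from RefSeq (GRCm38.p6) matched 5 of the 7 members, in 7 windows that run from 250 bases before an annotated start to 50 after it. Eya1 and Eya2 are not in the table. The sequences below are the 250 bases before the start, 5′ to 3′ on the strand of the gene, with CG dinucleotides in capitals. For Six4, 29 bases around the match are given, with the match in capitals.
Six2 (chr17:85688255-85688504, minus strand): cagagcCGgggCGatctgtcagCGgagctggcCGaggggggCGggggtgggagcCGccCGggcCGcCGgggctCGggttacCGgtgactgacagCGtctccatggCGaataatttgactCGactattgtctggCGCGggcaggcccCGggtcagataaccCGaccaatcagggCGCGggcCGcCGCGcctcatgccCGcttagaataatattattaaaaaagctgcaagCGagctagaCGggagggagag
Six5 (chr7:19094294-19094543, plus strand): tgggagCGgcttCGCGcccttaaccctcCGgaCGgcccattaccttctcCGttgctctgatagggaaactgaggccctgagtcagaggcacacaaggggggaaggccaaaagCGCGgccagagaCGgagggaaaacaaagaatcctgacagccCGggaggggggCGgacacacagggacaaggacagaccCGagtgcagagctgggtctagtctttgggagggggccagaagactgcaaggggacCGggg
Six4 (chr12:73113326-73113354, minus strand): tggcctggggGAAACCTGAtcggccagat

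The Six2 stretch holds 26 CG dinucleotides and the Six5 stretch 13, more than 90.4% and 68.5% of the 32851 promoter windows in the table, whose median is 6. The Eya3, Eya4 and Six4 windows held 13 to 35. All member windows were thus richer in CG than the median window, whichever way the gene went. The motif searched was the MEF3 element, which proteins of the Six4 family bind, TCAGGTTTC, on both strands. It occurs in 0.429% of all windows of this length and in 1 member window, that of Six4, as its reverse complement GAAACCTGA, starting 99 bases before one annotated start and downstream of another. The shorter core TCAGGTT, which overlaps it, occurs in 4.07% of windows and in the same Six4 window. These are matches of letters and do not show that a site is bound.

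Like Eya1 and Six2, most other listed transcription factors of the dental mesenchyme were lower at E18 than at E16, though none by as much as Eya1. Of 12 such regulators measured, 8 were lower at E18 by 2-fold or more and 2 higher, with a median log2 difference of -1.69. At P3 against E16 again 8 were lower and 2 higher (median -1.53). At P3 against E18 there was 1 lower and 1 higher (median 0.03). Among all genes, 8.13% were lower and 8.09% higher at E18 against E16. The shares were 15.6% and 6.58% at P3 against E16, and 11.8% and 4.08% at P3 against E18. The LIM homeodomain genes Lhx6 (4.45-fold lower at E18) and Lhx8 (3.47-fold), the molar regulator Barx1 (3.53-fold) and Twist1 (4.37-fold), which marks undifferentiated mesenchyme, stood between Six2 and Eya1 in size. Dlx1 had signals of 847, 281 and 387, close in course to Six2. By their brightest probe sets, Msx1 and Prrx2 were only 1.29-fold and 1.30-fold lower at E18. Dlx2 went the other way, 8.47-fold higher at E18, and Msx2 was 2.02-fold higher by its brightest probe set and 1.01-fold lower by another. This list was chosen with earlier results known, so it describes where the 7 genes stand and supports nothing.

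Markers of cell types were measured beside these values. Of 9 dental mesenchyme markers, 5 (Barx1, Pax9, Lhx6, Lhx8 and Twist1) were at least 2-fold lower at E18 by their brightest probe sets. None of the 9 was 2-fold higher by its brightest probe set, and their median log2 difference was -1.79. Msx1 was lower by less (log2 difference -0.36). Vim (0.59), Pdgfra (0.58) and Col1a1 (at least 0.96) were higher. Other Pdgfra probe sets were 2.14-fold higher and 2.38-fold lower. The 5 thus moved the same way as Eya1 and Six2, while Vim, Pdgfra and Col1a1 did not. These 5 also stand in the list of regulators above. At P3 against E16, 5 were lower and 2 (Vim and Col1a1) higher. The floor was reached by 8, 9 and 9 of the 9 at E16, E18 and P3, but nearly as many dental epithelium markers reached it (8, 9 and 8 of 9), so these counts do not tell papilla from epithelium. By their brightest probe sets, all 4 odontoblast markers were higher at P3 by 2-fold or more against E16, the direction of Six5. Other probe sets of Phex and Nes were 1.52-fold and 1.59-fold higher. From E18 to P3, 2 of the 4 were at least 2-fold higher, while Dmp1 was 4.75-fold lower, unlike Six5.

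Of 9 dental epithelium markers, 9 were higher at E18 by 2-fold or more than at E16, where Eya1 and Six2 were lower. From E18 to P3, 7 of these 9 were at least 2-fold lower, as was Six4, and 1 was higher. At P3 against E16, 3 (Epcam, Krt5 and Krt17) were lower and 2 (Amelx and Ambn) higher. The median log2 difference of the 9 was -0.44, beside -0.17 for all genes. It lay on the same side as Eya1, Six2 and Six4 but was smaller in size. With quantile normalization it was -0.09 and with median scaling -0.20. These values are from the brightest probe sets. Another probe set was 1.04-fold higher for Epcam and another 2.28-fold higher for Trp63. Those of Krt14 were 2.23-fold lower and 1.54-fold higher. The summed signal of all 9 was 7178 at E16, 22106 at E18 and 11237 at P3. The enamel matrix genes Amelx and Ambn carried most of the P3 sum. Without them, a split made after the values were seen, the other 7 summed to 6301, 18312 and 3520, lower at P3 than at E16. Such sums add signals of different probe sets and are weighted to the bright ones.

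The sum of 8 skeletal muscle markers was 478, 256 and 418, and 5 of them (Myog, Myf5, Acta1, Myh3 and Tnnt3) were below the floor at all stages. Of 3 endothelial markers measured, 2 were at least 2-fold lower at E18, Kdr (2571, 1062 and 846) and Tek (185, 60.2 and 124). The third, Cdh5 (197, 175 and 244), was 1.13-fold lower at E18 and highest at P3. The sum of 4 such markers was 2971, 1308 and 1223, most of it from Kdr. The glial marker Sox10 had 234, 128 and 212, lowest at E18 like Six2 but 1.83-fold lower there, and the other glial marker measured, S100b, stayed below the floor. The sum of 5 macrophage markers was highest at P3, as was Six5. It was 1811, 3311 and 6162, and 2 of 4 measured passed 2-fold upward from E16 to P3, Csf1r (2.82-fold) and Mrc1 (19.3-fold). Of 4 cartilage markers measured, 2 were higher at P3 by 2-fold or more, among them Sox9 (172, 499 and 522). The part of these cell types in the member values was not tested.

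**Figure D3:**
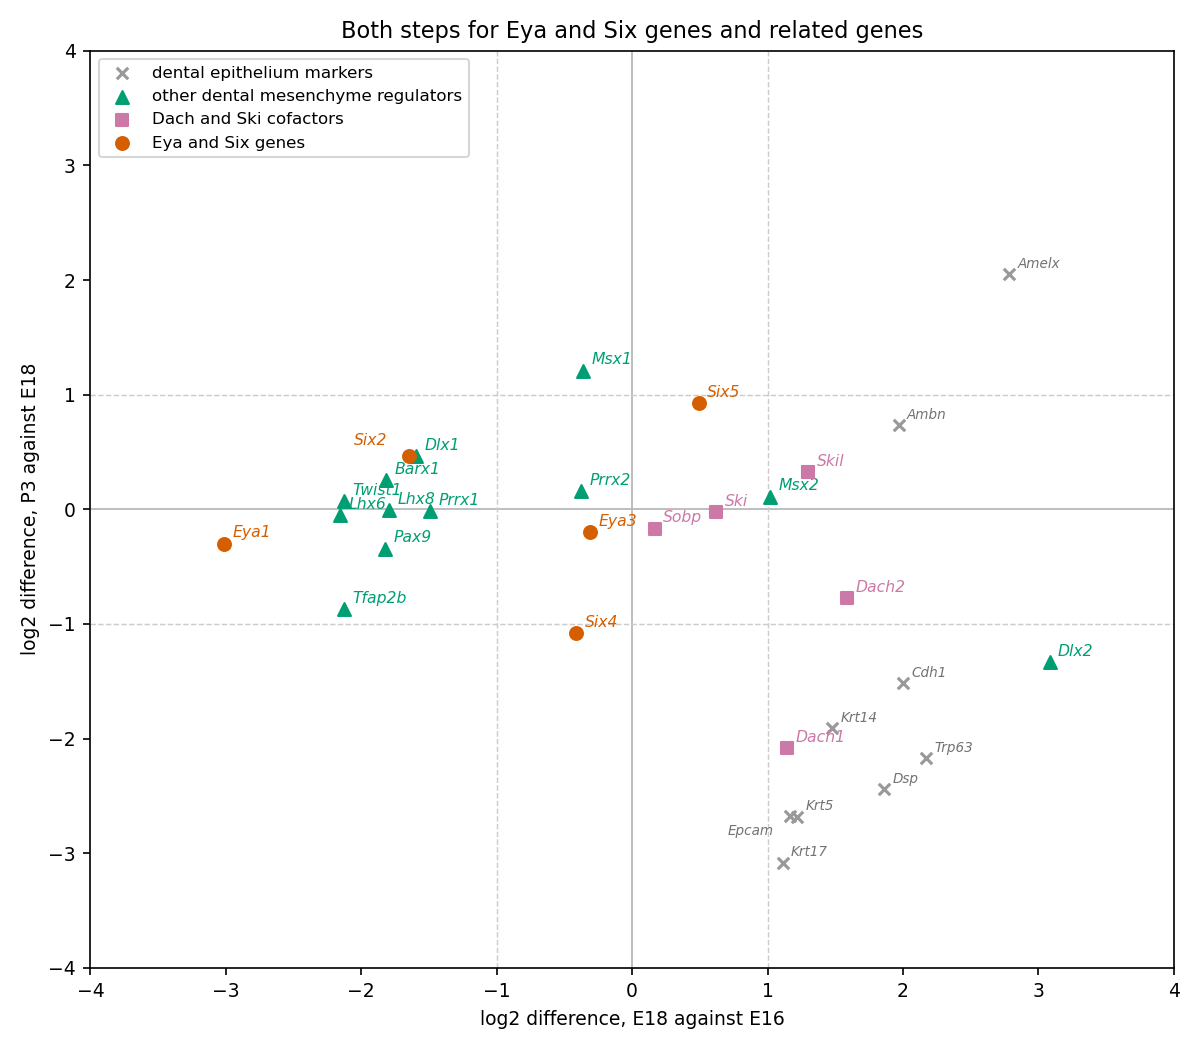
Log2 difference at E18 against E16 (x axis) and at P3 against E18 (y axis) of the brightest probe set, for the 7 genes of which 5 could be placed (circles), other dental mesenchyme regulators (triangles), Dach and Ski cofactors (squares) and dental epithelium markers (crosses). Dashed lines mark 2-fold, and values below the floor were set to it, so points of genes near the floor are bounds. Eya1 and Six2 lie on the left with Lhx6, Twist1, Barx1 and Dlx1, while Dach1, Dach2 and Skil lie on the right.

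Partners and relatives of the family went both ways. Of further genes of the family, Six3, the neighbour of Six2 in the RefSeq annotation (GRCm38.p6), had signals of 160, 122 and 149 by its brightest probe set and was 1.31-fold lower at E18, and Six6 lay below the floor (2.87, 4.32 and 4.0). Among Pax genes, which act upstream of Eya1 in several organs, 1 of 4 measured was at least 2-fold lower at E18 and none higher. That gene was Pax9, a factor needed for tooth mesenchyme, with 1383, 391 and 309 by its brightest probe set. Other Pax9 probe sets gave 1.97-fold lower and 1.31-fold higher at E18.

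In the Dach and Ski group, corepressors of which Dach1 and Dach2 join these complexes, 5 genes were measured. At E18 against E16, 3 of the 5 were higher by 2-fold or more and none lower, with a median of 1.14. Among all genes, 8.09% were higher and 8.13% lower. Ski was 1.54-fold higher at E18 by its brightest probe set and 1.48-fold lower by another. Dach1 had signals of 242, 536 and 126. It was 2.21-fold higher at E18 than at E16, and at P3 it was 4.24-fold below E18 and 1.92-fold below E16. Eya1 and Six2 were low at both E18, where Dach1 was highest, and P3, where Dach1 was lowest. The other Dach1 probe sets stayed below the floor. Dach2 had 60.3, 246 and 144 and was at least 3.00-fold higher at E18 (1.82-fold or more by another probe set). Skil, a repressor of TGF-beta signalling, had 697, 1718 and 2155, 2.46-fold higher at E18 and 3.09-fold at P3. Of the 9 epithelial markers 7 were also highest at E18 and 2, Amelx and Ambn, at P3, and their part in the Dach1 and Dach2 values was not tested.

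Of 8 measured corepressors and coactivators known to bind these proteins, 1 was lower at P3 by 2-fold or more against E16 and 2 were higher. Among all genes, 15.6% were lower and 6.58% higher. Tle1, a Groucho corepressor, had 1557, 486 and 305, a decrease of 5.10-fold by its brightest probe set and 1.97-fold by another. Tle2 had 294, 372 and 920 and was 3.13-fold higher at P3. Tle3 was 1.23-fold higher at P3 by its brightest probe set but 3.43-fold lower by another. The coactivator Ep300 had 407, 647 and 1108, 2.72-fold higher. Its relative Crebbp had like signals by its brightest probe set (2048, 2073 and 2045) and was 2.08-fold lower at P3 by another.

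Among genes known as targets of the network in other tissues, 4 of 7 measured were higher at E18 by 2-fold or more against E16 and none lower (median 1.05). After quantile normalization 3 of 7 were higher. Among all genes, 8.09% were higher and 8.13% lower. The 4 genes were the cyclin gene Ccnd1 (810, 3818 and 1452), Myc (38.3, 225 and 64.3), the membrane linker gene Ezr (828, 1712 and 1026, with 1.44-fold higher at E18 by another probe set) and the transcription factor Sall1 (28.8, 233 and 157). Myc and Sall1 were below the floor at E16, so their differences are bounds. All 4 were highest at E18, as were 7 of the 9 epithelial markers, whose part in these values was not tested. At P3 against E16, 1 of 6 was at least 2-fold higher by the brightest probe sets, Igfbp5 at 2.48-fold (1.08-fold by another probe set). Ccnd1 was 1.79-fold higher by its brightest probe set, and 2.64-fold and 2.83-fold higher by others. After quantile normalization 3 of 6 were at least 2-fold higher. Among all genes, 6.58% were higher, and 10.1% after quantile normalization. H2ax, the histone that Eya phosphatases act on after DNA damage, had 1115, 812 and 527 and was 2.12-fold lower at P3 than at E16, a value under 2-fold with either other scaling. Its reader Mdc1 was 1.48-fold lower.

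The genes nearest to each member in course were taken as those with the smallest distance between the pairs of log2 differences at both steps, over 3 arrays only. These distances use the signals without the floor, and 9 of the 18 neighbours had at least 1 array below it, where a signal has no firm value. For Eya1, they were the activin subunit gene Inhba (distance 0.06; 1084, 138 and 115), the zinc finger gene Egr2 (0.25; 1054, 133 and 128) and Tafa4 (325, 40.2 and 32.0), whose E18 and P3 signals lie under the floor and give it no firm rank. Inhba and Egr2 also had a high E16 pool and low E18 and P3 pools. For Six2 the neighbour above the floor on all arrays was Dlx1 (distance 0.06), beside Fut10 and Ccdc117, each with an array below it. Six4 had Utp4, and below the floor on an array Sprr2h and Prorp. Six5 had Pck2 and Ifitm2, and Borcs7 with its E16 signal below the floor, and Eya3 had Tirap, Mkks and Ago2. For Eya4, whose own E18 and P3 signals were below the floor, the 3 neighbours rest on values of no firm size and are not named. After quantile normalization 5 of these 18 pairs remained, among them all 3 for Eya1, so the other neighbours depend on the scaling.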

How the data were processed

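The authors deposited 1 ratio per probe set and array for 45101 probe sets on 3 arrays. GCOS is named per the submitters' processing notes, and how values were scaled and centred was not given in the sources used here. From the values, 90.36% of probe sets had been divided by their own middle value and the other 4347 by a signal of 10. In the latter, values are whole numbers of steps, with a step size per array (0.718 for E16 and 1.08 for E18, relative to P3). Signals were recovered as the smallest number of steps of 0.1 that made all 3 values whole within a relative 3e-07. They can be too low by a whole-number factor; the step counts shared such a factor in 17.2% of the probe sets where they are known. Gene symbols came from the platform annotation (34958 probe sets with 1 symbol). Controls were left out, which left 34945. A gene is represented by its brightest probe set, the one with the highest mean recovered signal. Values below 82.0 were set to it before log2, and a gene was measured in a comparison when 1 of its arrays reached that floor. The threshold was 2-fold, and there is no test with 1 array per stage. The recovery and calls were tried on simulated data. Changes were placed there only in probe sets with base signals well above the floor. The noise was smaller than the spread between probe sets here. That trial therefore does not bear on calls near the floor. Named were all members, the 3 genes nearest to each measured member (Eya4's left out, being below the floor), and listed genes at least 2-fold different in a comparison or set beside a member, not all of which are given. Members and lists were chosen with earlier results of these data known. Python 3.11.15, numpy 2.4.6 and pandas 2.3.3 were used.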

Additional observations from a re-analysis of the deposited data

How the results depend on the processing

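Each difference was recomputed with quantile normalization, median scaling, a floor of 41.0 or 164, the median over measured probe sets, and without probe sets named _a_at, _s_at or _x_at. Of 116 recomputed differences of members, 112 moved by less than the spread between probe sets of a gene. Many could not move, since a change of floor or of probe sets leaves the values it does not touch as they were. The count of 112 therefore does not measure how robust the differences are. No difference past 2-fold changed sign. At P3 against E18, the count of members 2-fold higher became 1 (Six5) with quantile normalization and with median scaling, and the count lower became 0 with median scaling, with the floor of 164 and with the median over probe sets, so the Six4 call at that step depends on these choices. With the floor of 164 the count higher at P3 against E16 became 0, since Six5 then lies under the floor at E16, and Eya1 was at least 4.97-fold lower in both comparisons with E16. Of the 18 nearest genes 5 remained with quantile normalization. Among all genes, the share of higher ones among those past 2-fold at P3 against E16 was 29.7% as deposited, 49.0% with quantile normalization and 46.7% with median scaling. At P3 against E18 it was 25.7%, 47.7% and 39.7%. The median of all genes at P3 against E16 moved from -0.17 to 0.02 and 0.04. No paired analysis was possible because each stage has 1 array. With 1 array a stage, no replicate could be left out. Signals near the floor limit Eya2, Eya4 and the E16 value of Six5.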
